A study of Mus musculus with 11 samples.

Results

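The core histone and H1 genes of the mouse histone clusters, together with 6 histone variants that are made outside the clusters, were followed in 11 mouse high-grade gliomas. The members were the protein-coding genes of the count table whose symbol begins with Hist1h, Hist2h, Hist3h or Hist4h, plus H2afx, H2afz, H2afy, H3f3a, H3f3b and H1f0. This gave 59 cluster genes and 6 replacement variants, 65 of the 27687 genes in the table. Of the cluster genes, 50 carry a Hist1, 6 a Hist2, 2 a Hist3 and 1 a Hist4 name. A further 3 genes that match the symbols but have another biotype were left out, whereas H1f0 was kept by name although the table gives it as a pseudogene.

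RNA was sequenced from tumours that grew in the brains of NOD-SCID mice, which lack T and B lymphocytes. The injected glioma-initiating cells were subventricular zone neural stem cells, isolated at 7 days of age from mice with the compound conditional alleles p53;Ink4a/Arf;Krasv12;LucR and exposed in culture to lentiviral Cre. All cells, those of the controls included, carried FH1-tUTG-shEzh2, a doxycycline-inducible short hairpin directed at Ezh2. The labels place 9 tumours under prolonged Ezh2 knockdown and give 2 as controls. The series text says that mice drank doxycycline or did not, while the treatment label gives 2 mg/ml with 1% sucrose for every tumour, so that effects of drug and hairpin cannot be told apart. Whether each tumour had its own cell preparation is not in the labels, and the spread that enters the p-values is that between these samples, part of which may be technical.

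Histones package DNA into nucleosomes, with H2A, H2B, H3 and H4 forming the core and H1 binding the linker. The cluster genes are made mainly in S phase, and their mRNAs usually end in a short stem-loop bound by Slbp instead of a poly(A) tail. Some of them also give longer polyadenylated mRNAs, among them forms found in cells that have left the cycle. Replacement variants are transcribed from genes outside the clusters, mostly with introns and poly(A) tails, and are supplied through the whole cell cycle. Ezh2, the target of the hairpin, methylates lysine 27 of histone H3 as part of Polycomb repressive complex 2. Libraries were made with the TruSeq RNA kit, and the labels do not say how mRNA was selected, so that the read counts describe the captured mRNA and not all histone mRNA.

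The stem-loop is the feature that sets the mRNA of a cluster gene apart, and it was searched for in the GENCODE M21 transcripts. The search took any run of 16 bases in which a stem of 6 begins with GG, pairs without a mismatch with the last 6 and leaves a loop of 4 that begins with T. Of the 49 cluster genes with a transcript in that annotation, 33 held it. The most common form was found in 17 genes, Hist1h1c and Hist1h2ac included. The forms listed here are those of cluster genes that fell and of H2afx, which was not called. The fixed pattern of the search limits how far they can differ. Hist1h1e and Hist3h2ba, which were tested and not called, hold the same form as Hist1h1c. Capitals mark the 2 arms of the stem and lower case the loop.
Hist1h1c: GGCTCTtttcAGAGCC
Hist1h2ac: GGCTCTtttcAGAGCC
Hist3h2a: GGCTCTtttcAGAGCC
Hist1h4h: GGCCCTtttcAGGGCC
Hist1h4i: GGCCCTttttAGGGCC
Hist2h4: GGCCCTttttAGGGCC
H2afx: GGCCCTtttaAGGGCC
H2afx was the only replacement variant of the 5 with a transcript in which these letters were found. In the annotated transcripts of Hist1h2bc and Hist2h2be the search found no such run, which says only that these letters are not in those models.

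Depth ran from 11209233 to 18638382 counts over genes per library. Levels are given in CPM, counts scaled to a common library size by TMM. Ezh2 was at 16.2 ± 8.68 CPM (SD, n = 9) under knockdown and at 48.96 ± 5.20 CPM (SD, n = 2) in the controls, without overlap. This was a log2 fold change of -1.59 ± 0.44 (SE), with an adjusted p of 0.023 by the edgeR quasi-likelihood test, and it did not pass without control 1 (-1.70) or without control 2 (-1.48). Markers of other cells also moved with the group, to be read beside the 13.0% of all genes tested that fell and the 10.3% that rose. All 8 neutrophil markers fell, with a summed level of 2.45 to 9.42 CPM in the knockdown tumours and 62.7 to 209.2 CPM in the controls. Of 8 measured macrophage and microglia markers 7 fell, from 406.3 to 818.8 CPM in the controls to between 186.3 and 338.6 CPM. Of 7 glial and neural stem markers 4 fell and 1 rose, the sum lying between 6284 and 7375 CPM in the controls and between 2606 and 3951 CPM in the knockdown tumours. Of 4 measured neuronal markers 2 rose, and of 6 endothelial markers 1 rose and 1 fell. No measured marker of these lists was at 0 in all tumours, and the part of these cells in the results below was not tested. In whole tumours, fewer cells of a type and less RNA per cell cannot be told apart.

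The cluster histone genes were lower in the knockdown tumours, while the replacement variants were not changed at the threshold. Summed over all 59 cluster genes, the level under knockdown was 41.4 ± 10.3 CPM (SD, n = 9), against 142.7 ± 20.9 CPM (SD, n = 2) in the controls, 3.44-fold higher in the latter. The 6 replacement variants together stood at 1044 ± 100.6 CPM and 1112 ± 137.6 CPM. Over all 59 genes the sums were 40.8, 30.3, 47.9, 30.9, 41.1, 26.8, 52.5, 46.5 and 56.1 CPM in knockdown tumours 1 to 9, and 157.4 and 127.9 CPM in controls 1 and 2. The groups did not overlap, the highest knockdown tumour, number 9, lying well under the lower control, and number 6 was the lowest. The replacement sums ran from 895 CPM in knockdown 9 to 1250 CPM in knockdown 3, with the controls at 1209 and 1014 CPM inside that range.

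**Figure D1:**
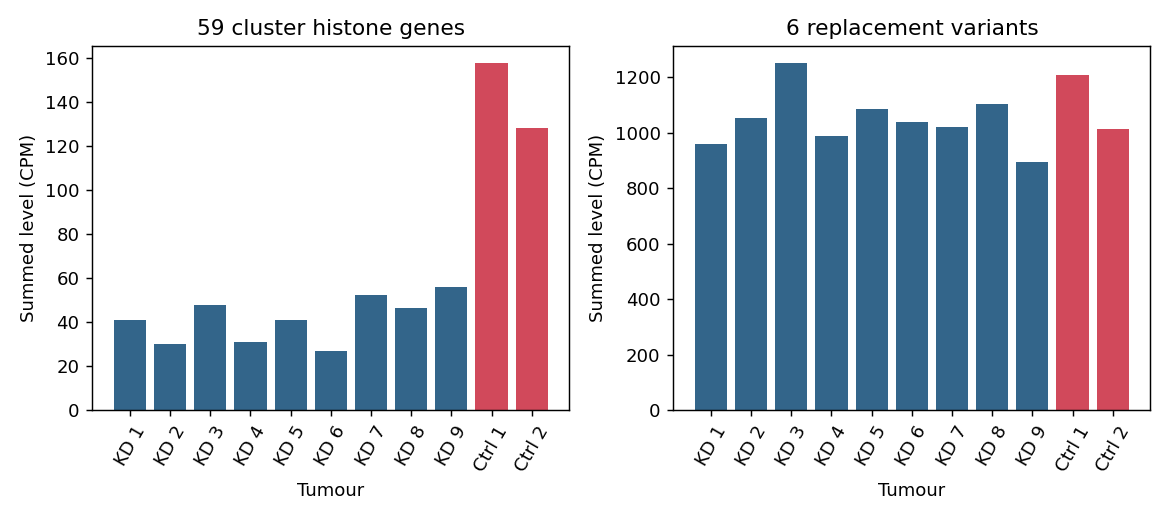
Summed level in CPM (bars, vertical axes from 0) of the 59 cluster histone genes (left) and of the 6 replacement variants (right) in each tumour, knockdown (KD) in blue and control (Ctrl) in red. On the left every knockdown tumour stands at or under 56.1 CPM and both controls at or over 127.9 CPM, whereas on the right the groups overlap.

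Set against the replacement variants within each tumour, the cluster genes gave 4.01 ± 1.15 counts (SD, n = 9) per 100 replacement counts under knockdown, against 12.8 ± 0.291 (SD, n = 2) for the controls. Tumour by tumour the ratio was 4.25, 2.88, 3.83, 3.14, 3.78, 2.58, 5.14, 4.21 and 6.27 in knockdown 1 to 9, and 13.0 and 12.6 in the controls. The ratio uses counts of one library only, so that no scaling between libraries enters it. It was lower in each of the 9 knockdown tumours than in both controls, and the 2 controls were alike although their cluster sums differed. On the log2 scale the mean difference was -1.73, and it was between -1.65 and -1.81 with any single tumour left out. H3f3b gave 90642 of the 136729 replacement counts under knockdown and 21840 of 31937 in the controls, and without H3f3b the difference was -1.83. As a score over members chosen with results known, it was given no test.

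Each class of cluster histone showed lower sums in all 9 knockdown tumours than in both controls. The 6 H1 genes together were at 23.8 ± 7.36 CPM against 61.7 ± 2.34 CPM, 2.60-fold higher in the controls, the smallest ratio of the 5 classes. The 16 H2B genes had the largest, 5.11-fold, at 10.1 ± 2.20 CPM against 51.7 ± 10.7 CPM. H2A (15 genes) was 3.47-fold, H3 (10 genes) 3.53-fold and H4 (12 genes) 4.48-fold higher in the controls. Control 1 was above control 2 in H4, at 17.9 and 8.70 CPM, and in H2A, at 15.3 and 8.51 CPM. By cluster, the ratio was 3.45 for Hist1, 4.05 for Hist2 and 2.23 for Hist3, each without overlap between the groups. Hist4h4, the lone Hist4 gene, had 21 counts over the knockdown tumours and 6 over the controls, too few for a comparison.

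Much of the cluster signal came from a few genes. Hist1h1c made up 40.7% of the cluster counts in the controls and 52.8% in the knockdown tumours, and Hist1h2bc 24.3% and 13.6%. Leaving out both genes, a choice made after seeing the data, the remaining 57 cluster genes summed to 14.1 ± 3.22 CPM (SD, n = 9) against 50.5 ± 15.3 CPM (SD, n = 2), again with all 9 knockdown tumours below both controls. At the other end, 41 cluster genes had too few counts to be tested, between 0 and 52 over all 11 tumours. Together these 41 genes gave 3.00 ± 1.62 CPM in the knockdown tumours, with 10.8 CPM in control 1 but 3.69 CPM in control 2, so that 2 knockdown tumours (3 and 5) exceeded control 2.

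Gene by gene, 15 of the 18 cluster genes with enough counts fell and 0 rose (edgeR, Benjamini-Hochberg adjusted p under 0.05 over 16241 genes). Over all genes tested 13.0% fell and 10.3% rose, and the median log2 fold change was 0.07. At an unadjusted p under 0.05, 0 cluster genes rose as well. Of the 15 genes, 6 had passed the filter on low counts through the controls alone and so had to be lower. The other 12 tested genes passed on the knockdown libraries alone, of which 9 fell, with a median log2 fold change of -1.74 over the 12. The 3 of them that were not called, Hist1h1b, Hist1h1e and Hist3h2ba, would not have passed on the controls alone. Without the filter, 16 of 58 cluster genes fell against 7.56% of all genes, and 44 of the 58 had a log2 fold change below 0. These 16 were 14 of the 15, with Hist1h1t and Hist1h4b in addition and without Hist1h2bg. In 14 of the 15 genes all 9 knockdown tumours were below both controls, which follows in large part from their being called lower. The share over all genes tested, called or not, was 13.8% and is not a like base for these 15. The number of calls depended on the model fitted and on having both controls. Only tumours numbered 1 and 2 inform the contrast when the replicate number is a block, which leaves 1 residual degree of freedom. With that block the number was 1, against 4.22% of all genes called in either direction. It was 4 without control 1 and 9 without control 2, against 5.33% and 7.05% of all genes called lower in those fits (7.61% and 10.4% in either direction). Those called without control 2 included Hist1h2ae, which was not tested with both controls. It had 17 counts in control 1 and between 1 and 6 in each knockdown tumour. Hist1h2ae thus entered that fit through control 1 alone and had to be lower. DESeq2, run without this filter, called 14 of 58 cluster genes lower, against 9.99% of all genes.

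**Figure D2:**
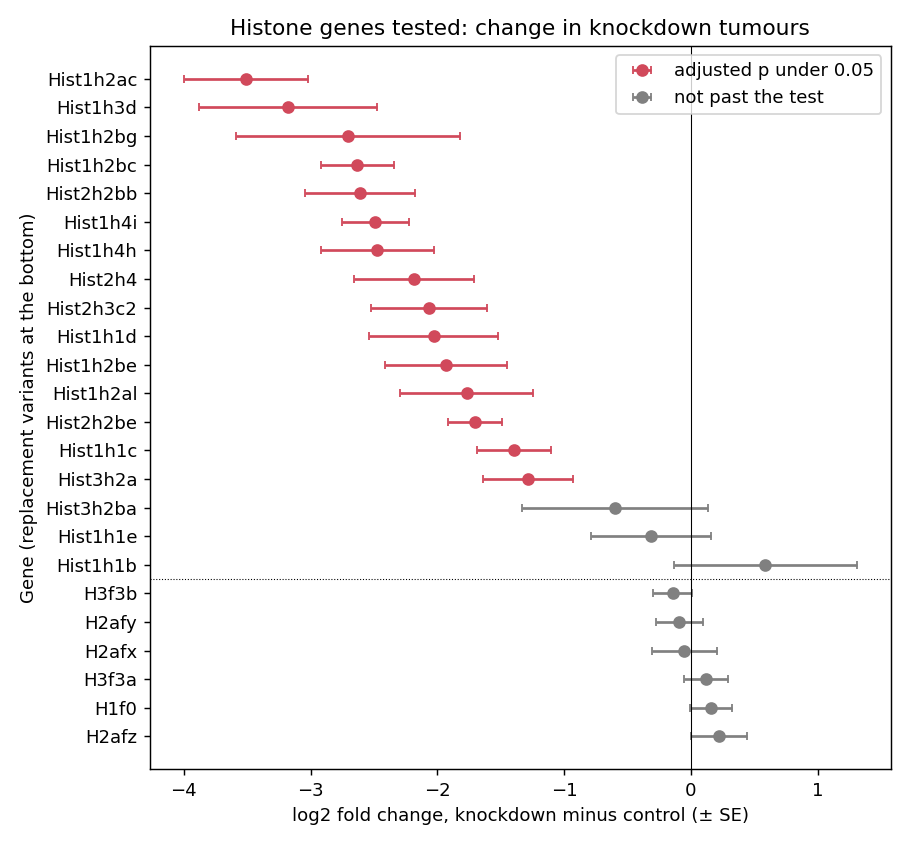
Log2 fold change, knockdown minus control, of the 18 cluster genes and 6 replacement variants tested by edgeR (points, with bars of 1 SE), red where the adjusted p was under 0.05. The 15 red genes lie between -3.51 and -1.28, and the 6 replacement variants at the bottom between -0.14 and 0.22.

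Among the linker histones, Hist1h1c (H1.2; ENSMUSG00000036181, mm9 chromosome 13, 23830676 to 23832235) was the most abundant cluster gene. Its level was 20.2, 13.6, 21.8, 14.2, 18.8, 15.0, 31.4, 27.4 and 32.9 CPM in knockdown 1 to 9 and 55.1 and 59.3 CPM in the controls. Knockdown tumours 7, 8 and 9 were the highest of their group, yet none came near the controls. The log2 fold change was -1.40 ± 0.29 (SE; edgeR, adjusted p = 0.0066). With 1 control in the fit the size was similar, -1.45 and -1.35, but neither fit passed the test (adjusted p = 0.0504 and 0.057). Hist1h1d (H1.3) fell 4.08-fold, from 2.54 ± 0.119 CPM in the controls to 0.613 ± 0.355 CPM (adjusted p = 0.015), and its call was lost with 1 control left out (-2.08 without control 1, -1.98 without control 2). Hist1h1e (H1.4; -0.32 ± 0.47) and Hist1h1b (H1.5; 0.59 ± 0.72) did not pass, and in both genes the groups overlapped. Hist1h1a, with 39 counts in all, was not tested. Hist1h1t, the testis form, had 0 counts in every knockdown tumour and 3 and 2 in the controls, at or under the floor of 3 counts in each library. In the fit without the filter it passed.

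Hist1h2bc, an H2B gene known to give polyadenylated mRNA as well (ENSMUSG00000018102, mm9 chromosome 13, 23776068 to 23784357), showed one of the most separated patterns. It was at 6.18, 4.77, 6.41, 4.18, 4.24, 2.81, 7.93, 5.81 and 8.29 CPM in knockdown 1 to 9 and at 41.0 and 28.9 CPM in the controls. All knockdown tumours lay far below the lower control, control 2. The fall was 6.19-fold (log2 fold change -2.63 ± 0.29 SE, adjusted p = 0.00021), and it passed with either control left out (-2.36 without control 1, -2.86 without control 2). Hist2h2be, the main H2B gene of the Hist2 cluster, fell 3.26-fold. It was among the most even of all members, between 1.91 and 2.83 CPM over the 9 knockdown tumours and at 7.07 and 8.07 CPM in the controls (-1.71 ± 0.21, adjusted p = 0.00039). Hist2h2bb fell as well (-2.61 ± 0.43, adjusted p = 0.0018), but the later annotation gives its identifier as Gm42743, a lincRNA, and an antisense model overlaps it. Hist1h2be (-1.93 ± 0.48, adjusted p = 0.015) and Hist1h2bg (-2.70 ± 0.88, adjusted p = 0.045) were scarce, at under 0.83 CPM in every knockdown tumour. Both passed the filter through the controls alone, and neither kept its call with 1 control left out. Without control 1 and without control 2 the values were -1.75 and -2.11 for Hist1h2be and -1.85 and -3.26 for Hist1h2bg. The model of Hist1h2be spans 37383 bases and overlaps the pseudogene Gm11398. Hist3h2ba did not pass (-0.60 ± 0.73), and knockdown tumours 7 and 9 exceeded both controls.

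Hist1h2ac lies beside Hist1h2bc, the 2 gene models being 250 bases apart in the table, as H2A and H2B genes of the clusters are often arranged in pairs. It had the largest fall of all members, -3.51 ± 0.49 (adjusted p = 0.00072), and passed the filter through the controls alone. Its counts over the knockdown tumours were 33 in all, at 0.0783 to 0.411 CPM with a median of 0.305, against 4.84 CPM in control 1 and 1.13 CPM in control 2. The controls thus differed between themselves, and the fit without control 1 gave -2.12 (adjusted p = 0.056). It was the one such pair with both genes tested, out of 10 neighbouring H2A and H2B genes in the table. Hist3h2a, the most abundant H2A gene of the clusters, fell 2.44-fold. Its values were 1.88, 1.15, 1.38, 1.16, 1.35, 0.726, 1.71, 0.915 and 2.32 CPM in knockdown 1 to 9 and 3.54 and 3.32 CPM in the controls (-1.28 ± 0.35, adjusted p = 0.023). The groups did not overlap, although the call was lost without control 1 (-1.24) and without control 2 (-1.33). The gene Trim17, with 63 counts over all tumours, overlaps its model. Hist1h2al also fell (-1.77 ± 0.52, adjusted p = 0.030), but GENCODE M21 lists it as a processed pseudogene, and 67.6% of its 50-base stretches occur in another annotated gene. It was counted by its Hist1 name, although its model lies apart, at 51298057 to 51298434 of mm9 chromosome 13. The other Hist1 models lie between 21807632 and 24026720 of that chromosome. Its call was lost without control 1 (-1.58), without control 2 (-1.94) and without knockdown 2 (-1.71).

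Of the H3 genes, Hist2h3c2 was the most abundant. Its values were 0.548, 0.164, 0.276, 0.205, 0.450, 0.0908, 0.549, 0.485 and 0.530 CPM in knockdown 1 to 9 and 1.61 and 1.56 CPM in the controls. The controls were close together and the knockdown tumours lay at or under 0.549 CPM, a level of few reads. It fell 4.18-fold (-2.06 ± 0.46, adjusted p = 0.0087). Hist1h3d fell from 1.74 ± 0.691 to 0.185 ± 0.156 CPM (-3.18 ± 0.70, adjusted p = 0.0084). Without control 1 the values were -2.05 and -2.71 and neither passed, and without control 2 Hist2h3c2 was lost at -2.09. Neither gene passed the filter on the knockdown libraries alone, and 63.5% of the 50-base stretches of Hist2h3c2 are shared with another gene, so that its reads may have been split or lost.

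Hist1h4i (ENSMUSG00000060639, mm9 chromosome 13, 22132685 to 22133221) was the most abundant H4 gene and the cluster gene with the smallest p. It was at 1.10, 1.48, 1.65, 1.10, 1.22, 0.999, 1.22, 1.08 and 0.994 CPM in knockdown 1 to 9 and at 8.92 and 4.69 CPM in the controls. The knockdown tumours were close together, while control 1 was well above control 2. The fall was 5.61-fold (-2.49 ± 0.26, adjusted p = 0.00016), and it passed with either control left out (-1.96 without control 1, -2.88 without control 2). Hist2h4 (-2.19 ± 0.47, adjusted p = 0.0074) and Hist1h4h (-2.47 ± 0.44, adjusted p = 0.0029) fell too and lost their calls without control 1, at -1.82 and -1.81. Hist1h4h passed the filter through the controls alone. All H4 genes encode near-identical proteins, and the other 9 H4 genes had too few counts to be tested.

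Among the 15 genes that fell, no single knockdown tumour was always the lowest or the highest. Knockdown 3 was the highest of its group in 5 and knockdown 9 in 4, while knockdown 6 was the lowest in 5. Ties went to the tumour with the lowest number. Hist1h2bg was at 0 CPM in knockdown 2, 6 and 7, and Hist1h3d at 0 CPM in knockdown 5 and 7. Control 1 was the higher control in 12 of the 15. The genes that passed with either control left out were Hist1h4i, Hist1h2bc, Hist2h2be and Hist2h2bb. Hist1h2ac, Hist1h4h, Hist2h4 and Hist1h3d passed without control 2 but not without control 1.

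The replacement variants gave 0 calls of 6, and at an unadjusted p under 0.05 the number was also 0. H3f3b and H3f3a both encode H3.3, the H3 variant laid down outside replication. H3f3b was at 622, 707, 759, 657, 747, 703, 693, 785 and 544 CPM in knockdown 1 to 9 and at 857 and 669 CPM in the controls (log2 fold change -0.14 ± 0.15 SE, adjusted p = 0.52). Control 2 lay inside the range of the knockdown tumours. H3f3a was at 55.7, 60.8, 74.0, 57.2, 56.8, 48.1, 78.6, 55.7 and 63.4 CPM, with controls at 50.1 and 62.5 CPM (0.12 ± 0.17). Both controls fell within the knockdown range. The lincRNA Gm17275 overlaps the H3f3a model, with 1895 counts over all tumours beside 9703 for H3f3a, as does the antisense model Gm16067 (216 counts). Of the H2A variants, H2afz, the H2A.Z gene, was at 13.2, 17.6, 22.2, 15.9, 16.1, 14.4, 12.6, 15.4 and 13.1 CPM, with controls at 11.6 and 15.1 CPM (0.22 ± 0.22). H2afx, whose product is phosphorylated at DNA breaks, was at 52.3, 50.7, 74.7, 37.7, 42.2, 42.9, 33.6, 43.4 and 63.3 CPM, with controls at 44.0 and 57.6 CPM (-0.05 ± 0.26). It carries a stem-loop followed by 822 annotated bases, the layout of several cluster genes that fell. H2afy, which encodes macroH2A1, was at 144.4, 137.9, 213.2, 122.9, 138.7, 139.3, 112.7, 135.5 and 134.7 CPM, with controls at 159.4 and 143.8 CPM (-0.09 ± 0.19). Knockdown 3 stood above all others, and 7 of the other knockdown tumours lay below both controls. The gene Gm17253, with 232 counts over all tumours, overlaps the H2afy model. H1f0, the linker histone of slowly dividing cells, was at 72.6, 78.5, 107.1, 96.4, 85.1, 92.8, 91.4, 69.5 and 76.9 CPM, with controls at 86.9 and 66.4 CPM (0.16 ± 0.17). Its model in the table spans 538 bases and its identifier has no transcript in the later annotation. The adjusted p of the 6 variants lay between 0.49 and 0.90, and a p that misses the threshold does not show that the levels were equal.

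**Figure D3:**
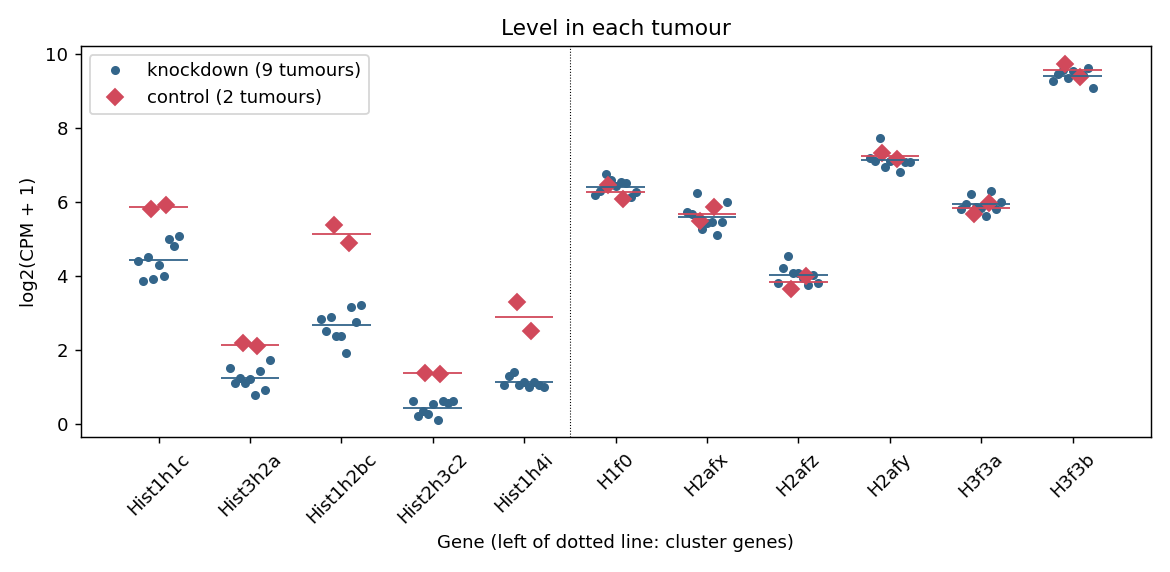
Level of the most abundant cluster gene of each class (left of the dotted line) and of the 6 replacement variants (right) as log2(CPM + 1) in each of the 9 knockdown (blue circles) and 2 control tumours (red diamonds), with group means as lines. The groups are apart for the 5 cluster genes and overlap for the replacement variants.

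Per length, using the longest coding transcript of GENCODE M21, H3f3b was the most abundant of these genes in both groups, at 303.5 CPM per kilobase in the controls and 274.7 in the knockdown tumours. H2afy followed at 74.1 and 69.5. In the controls Hist1h1c (36.7) stood level with H2afx (36.7), and Hist1h2bc (30.2) lay above H3f3a (19.8) and H2afz (12.5). In the knockdown tumours Hist1h1c (13.9) was close to H2afz (14.6) and below H3f3a (21.5), and Hist1h2bc (4.87) was below all 5 of these variants. The order is a description, since the transcript lengths come from a later annotation and the capture of cluster mRNAs is not known.

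Many of the cluster genes that could be measured have GENCODE M21 transcripts that run past the stem-loop. In the 10 genes that fell and hold a stem-loop, between 46 and 4884 annotated bases followed it, with a median of 1048.5, and in 9 of these it was over 100. In the 21 untested genes with a stem-loop the tail was between 11 and 770 bases, with a median of 42, and over 100 in 7. Hist1h1c has 840 bases after the stem-loop, Hist1h2ac 2010, Hist3h2a 1643 and Hist1h4i 330, whereas Hist1h4h has 46. Hist1h1e (1153) and Hist3h2ba (169) have such tails and did not pass the test. Reads were counted on the models of the table, however, and these can stop short of the later transcripts. Hist1h1e spans 748 bases in the table and 1930 in GENCODE M21, and Hist1h1d 3821 and 7425. A tail outside the counted model adds no reads. Where the counted model is longer it collects more reads, so that the tail, the length and the level cannot be told apart here. The share of 50-base stretches found in another gene, a measure of how many reads may not map to one place, had a median of 23.4% in the genes that fell and 50.9% in the untested ones.

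**Figure D4:**
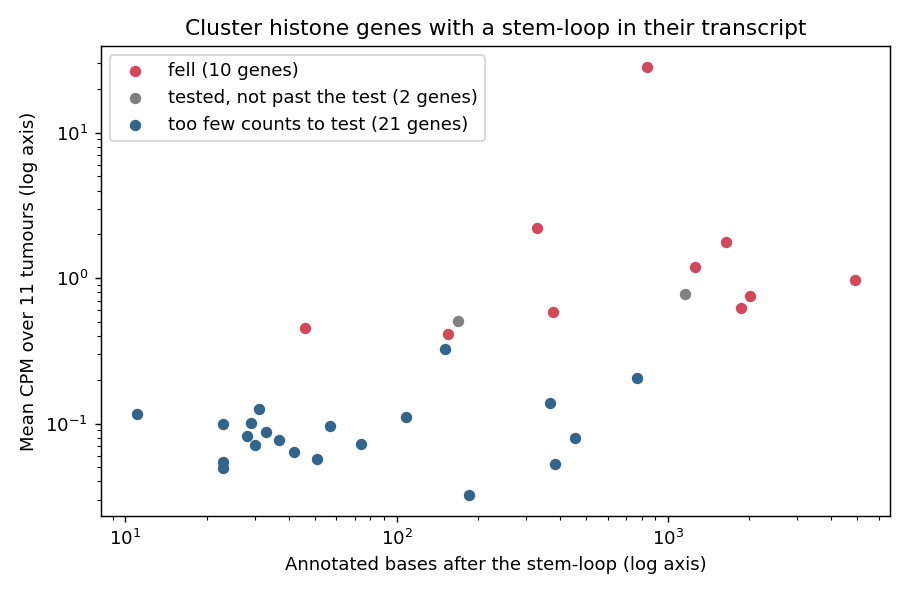
Annotated bases after the stem-loop (horizontal, log axis) against mean CPM over all 11 tumours (vertical, log axis) for the 33 cluster genes with a stem-loop. The 10 genes that fell (red) have a median tail of 1048.5 bases and the 21 genes with too few counts (blue) one of 42.

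The promoters of the cluster genes share short elements. RefSeq promoter sequences (GRCm38.p6) were matched by symbol or synonym for 53 of the 59 cluster genes and 5 of the 6 replacement variants, with no entry for Hist1h2bc, Hist2h2be and Hist2h4. In the 250 bases before the start site, CCAAT, on either strand, was found in 44 of the 53, against 33.8% of all promoters. TATAAA was in 28 of the 53 (12.4% of all promoters) and the octamer ATTTGCAT in 13 (1.60%), 7 of them H2A and 6 H2B genes. None of the 3 is contained in another. Of the 11 matched genes that fell, 8 had CCAAT, 5 TATAAA and 4 the octamer, and of the 39 untested genes 33, 20 and 9. Shown are the 120 bases before the start site of 3 genes that fell and of H3f3b, which was not called, with the motif matches in capitals. Hist1h2ac was taken for the side that faces Hist1h2bc.
Hist1h1c, chr13:23738687-23738806, plus strand: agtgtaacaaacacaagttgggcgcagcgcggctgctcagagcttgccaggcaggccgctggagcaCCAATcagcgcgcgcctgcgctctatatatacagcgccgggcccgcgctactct
Hist1h2ac, chr13:23683960-23684079, minus strand: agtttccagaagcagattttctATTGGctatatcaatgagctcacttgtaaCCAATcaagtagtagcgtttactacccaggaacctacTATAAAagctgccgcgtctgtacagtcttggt
Hist1h4i, chr13:22041363-22041482, minus strand: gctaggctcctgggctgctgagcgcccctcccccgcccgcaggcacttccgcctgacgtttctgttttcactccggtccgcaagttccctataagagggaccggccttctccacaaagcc
H3f3b, chr11:116024505-116024624, minus strand: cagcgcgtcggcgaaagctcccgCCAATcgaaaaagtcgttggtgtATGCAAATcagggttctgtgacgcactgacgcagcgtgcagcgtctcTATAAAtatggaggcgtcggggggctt
H3f3b thus holds all 3 motifs in these 120 bases and Hist1h4i none, although Hist1h4i has TATAAA within the 250 bases searched. Of the 5 matched replacement variants, 3 had CCAAT, 1 TATAAA and 1 the octamer. H3f3b was the only one with either of the last 2 motifs and so does not stand for the replacement variants. Whether the motifs differ between genes that fell and those that did not was not tested. The matches are a description of the sequence and say nothing of what binds there.

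Among genes that process histone mRNA or handle histone proteins, none passed the test as lower. Of 18 measured genes of histone mRNA 3′ processing 1 rose and 0 fell, beside 10.3% and 13.0% of all genes, with a median log2 fold change of 0.13. The one was Slbp, the stem-loop binding protein, which rose 1.99-fold, from 50.2 ± 11.7 CPM in the controls (adjusted p = 0.0025). It was higher in all 9 knockdown tumours than in both controls, the opposite direction to the cluster genes that were called. Whether Slbp binds the mRNAs counted here was not tested. Of 19 histone chaperones 4 rose and 0 fell (median 0.38), a share of 21.1% beside the 23.3% of all genes called in either direction. Hat1, which acetylates new H4, rose 1.81-fold (adjusted p = 0.012) and Chaf1b, a subunit of the replication-coupled assembly factor CAF-1, 2.22-fold (adjusted p = 0.026). Without control 1 the log2 fold changes of Slbp, Hat1 and Chaf1b were 0.77, 0.56 and 1.04, and none of the 3 passed, Slbp with an adjusted p of 0.052. Chaf1b did not pass without control 2 (1.27) either.

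Other histone variants went both ways, with 3 of 5 tested genes higher and 1 lower. Over all genes tested, 10.3% rose and 13.0% fell, the background for the counts of each list here. Cenpa, the centromeric H3, rose from 45.4 ± 12.3 to 89.4 ± 19.6 CPM (adjusted p = 0.015), and H2afv, a second gene for H2A.Z, from 49.5 ± 0.294 to 81.9 ± 14.2 CPM (adjusted p = 0.017). H2afj, an H2A variant outside the clusters, fell 1.57-fold (adjusted p = 0.030), with all 9 knockdown tumours below both controls. Of 20 genes of S phase, in which cluster histones are made, 8 rose and 0 fell, with a median log2 fold change of 0.74. The summed S phase level overlapped between the groups, at 926.8 to 2079 CPM under knockdown and 753.2 to 1021 CPM in the controls. Cdc6, which loads the replicative helicase, rose 2.62-fold (adjusted p = 0.0061) and was above the controls in all 9 tumours. Of 8 mitosis genes 1, Cdk1, rose (1.99-fold, adjusted p = 0.0089). Without control 1 Cenpa (0.72), H2afv (0.73), H2afj (-0.50), Cdc6 (1.06) and Cdk1 (0.79) did not pass, and without control 2 H2afv (0.72) and H2afj (-0.79) did not. H2afj also missed the threshold without knockdown 2 (-0.64).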

How the data were processed

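Total RNA was extracted with TRIzol and sequenced on a HiSeq2000 from TruSeq RNA libraries, per the labels. The authors deposited raw read counts, as whole numbers, by Ensembl gene and tumour. TopHat 1.4.0, HTSeq and the mm9 build are named in the submitters' processing notes. Not given in the sources used here are their settings and any use of strand. Reads of near-identical histone genes may thus have been split or dropped, and reads of overlapping genes mixed. Groups and numbers came from the sample titles.

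The counts were filtered with filterByExpr (a count minimum of 10 in 2 libraries, 0.706 CPM), which kept 16241 of 27687 genes. They were scaled by TMM and tested with edgeR 4.0.16 (glmQLFit and glmQLFTest, R 4.3.3) without covariates over all 11 tumours, with Benjamini-Hochberg adjustment. The SE is the fold change divided by the square root of F. The procedure was tested on simulated data. Alternatives were RLE scaling, DESeq2 1.42.0, no filter, each tumour left out, a replicate block and, added after seeing the data, limma-voom (limma 3.58.1) and other subsets. Replicate pairs had identical counts in at most 2.33% of tested genes. Levels were taken as CPM, and a count of 3 is the floor, 0.162 to 0.272 CPM.

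The members, the gene lists and the tests were chosen with earlier results of these data known. Named were all members that passed, all replacement variants, the 2 most abundant cluster genes of each class, and of each pathway list up to 2 genes in each direction. One result under this rule is not reported here. GENCODE M21 and RefSeq (GRCm38.p6) gave transcript and promoter sequences, and gene coordinates are those of the table.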

Additional observations from a re-analysis of the deposited data

Results flagged for a closer look

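H2afy, the macroH2A1 gene, stood at 213.2 CPM in knockdown 3, with the next knockdown tumour at 144.4 CPM. The gap was 0.684 of the range of the 9 knockdown tumours, above the critical value of 0.493. It was the one value of this kind among the 32 genes and ratios examined, and chance alone gives about 5% of them. Without knockdown 3 H2afy still did not pass the test.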

How the results depend on the processing

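The number of cluster genes that fell was within 1.5 times of 15 under RLE scaling, DESeq2 (14), no filter (16), limma-voom (15) and each knockdown tumour left out. Over single tumours left out it ranged from 4 to 15, the lowest without control 1. Of the 15 genes, 4 kept their call without control 1 and 8 without control 2, all staying lower, and a lone control is then assumed to vary like the knockdown tumours. Over the 9 fits without 1 knockdown tumour, 128 of 135 calls were kept, and 6 of the 7 lost were of Hist1h2bg (-2.70 to -2.56). Hist1h2bg also missed the threshold in DESeq2 (adjusted p = 0.062). Without knockdown tumours 7 and 9, or with only the tumours that had Xist reads, both chosen after seeing the data, 14 fell.

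The replicate numbers 1 and 2 occur in both groups, but the labels give no other link between these samples. Deviations from the group means correlated at -0.14 for number 1 and 0.02 for number 2. With 2 controls their deviations are mirror images, and knockdown 1 gave 0.14 against control 2. These correlations therefore cannot show whether the samples were paired. With the replicate block, which leaves 1 residual degree of freedom, 1 cluster gene (Hist1h2bc) fell, against 1.99% of all genes, and 686 in place of 3790 genes were called. Ezh2 was then at -1.55 (adjusted p = 0.057), and over single tumours left out at -1.76 to -1.48, not past the test without control 1 or control 2. The log2 ratio with the block was -1.87.

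The log2 ratio ranged from -1.81 to -1.65 over single tumours left out. As a difference of the median log2(CPM + 1) of tested cluster genes and replacement variants it was -1.25. For the uncalled variants the sign changed in some fits, without a call in any of them. With the block H1f0 was at -0.0082 and H2afx at 0.0321. Over single tumours left out H1f0 ranged from -0.0247 to 0.365, H2afx from -0.237 to 0.152, H3f3a from -0.0319 to 0.284 and H3f3b from -0.315 to 0.0444, the ends coming from fits without a control. The number of replacement variants called was 0 under every alternative. Depth limits the 41 untested genes.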
